A study of Mus musculus with 12 samples.

Results

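The genes described here are 58 components of the mitotic machinery, namely mitotic cyclins and kinases, condensins, kinetochore and checkpoint proteins, spindle motors, and proteins of cytokinesis and chromatid separation. They were found by symbol among the 23735 gene models (23492 symbols) of each deposited table, and each of the 58 lay on 1 row. RNA was measured by mRNA sequencing in hair follicle stem cells sorted by flow cytometry from mouse back skin, to compare cells with and without the transcription factor Foxc1. The series holds 12 libraries in 7 groups, and in the 5 groups with 2 libraries the labels name a separate mouse for each. The tables give 1 pooled FPKM value (fragments scaled to transcript length and to the number of mapped fragments) for each group and gene. Sequencing depth is unknown, and a difference between libraries of 1 group cannot be seen in these values.

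The anagen (growth phase) groups were males aged 30 days of a Black Swiss and C57BL/6 mix, and all of them carried the Sox9CreER driver and received tamoxifen, which activates the recombinase and a YFP reporter. In the controls (Het, 2 libraries) Foxc1 is labelled heterozygous, and in the inducible knockout (iKO, 2 libraries) it was deleted. The second telogen (resting phase) groups were Black Swiss. The wild type (WT, 2 libraries) and the K14Cre conditional knockout (cKO, 2 libraries) each paired a male aged 42 days with a female aged 46 days. K14Cre acts in basal epidermis and hair follicles from development onwards, so deletion there is neither restricted to adult stem cells nor timed by tamoxifen. Second telogen iKO cells (2 libraries) were taken at 60 days from males of the same mixed background as the anagen groups. Single libraries of first telogen (about 23 days) and of anagen substage II (about 26 days) were made from Shh-heterozygous Agouti females. Their titles call them WT.

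Cells divide by condensing their chromosomes, attaching them through kinetochores to spindle microtubules, and separating them once the spindle checkpoint is satisfied. Cdk1 with cyclin B starts mitosis, the Aurora and Polo kinases run its steps, and the anaphase-promoting complex ends it by marking cyclin B and securin for destruction. Transcripts of these genes are made mainly late in the cell cycle, so their level in bulk RNA follows how many cells are cycling and how much each makes. In hair follicles, stem cells of the bulge divide briefly in early anagen and are quiescent in telogen.

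Many promoters of such genes are read through the cell cycle homology region (CHR), a short element bound by MuvB complexes, together with CCAAT boxes bound by NF-Y. The promoter sequences of 6 members of 6 different roles are shown. They have the largest folds in second telogen among members with CHR letters on the gene strand, with 1 shown per role. Of these 6, the Cdc20 fold did not reach a q below 0.05 in the authors' deposited table (q = 0.211). Ndc80 (15.6-fold) and Depdc1a (10.1-fold) held CHR letters on the opposite strand only and are not shown. Each window runs from 250 bases before to 50 bases after the annotated start in the RefSeq table (build GRCm38.p6), on the strand of the gene, 5′ to 3′. Capitals mark the CHR letters (TTTGAA or TTCGAA) and CCAAT letters, the latter read as CCAAT or, on the opposite strand, as ATTGG. Bub1 and Spc25 lie on chromosome 2, at chr2:127831810-127832109 and chr2:69206164-69206463, Mki67 at chr7:135716330-135716629, Cdk1 at chr10:69352863-69353162, Kif23 at chr9:61946750-61947049 and Cdc20 at chr4:118437294-118437593, all on the minus strand.
Bub1: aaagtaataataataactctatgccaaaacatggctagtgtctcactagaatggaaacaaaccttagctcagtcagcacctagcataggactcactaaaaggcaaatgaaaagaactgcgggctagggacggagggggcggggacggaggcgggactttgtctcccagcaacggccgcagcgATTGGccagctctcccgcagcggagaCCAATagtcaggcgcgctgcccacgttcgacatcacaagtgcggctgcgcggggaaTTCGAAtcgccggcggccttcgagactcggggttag
Mki67: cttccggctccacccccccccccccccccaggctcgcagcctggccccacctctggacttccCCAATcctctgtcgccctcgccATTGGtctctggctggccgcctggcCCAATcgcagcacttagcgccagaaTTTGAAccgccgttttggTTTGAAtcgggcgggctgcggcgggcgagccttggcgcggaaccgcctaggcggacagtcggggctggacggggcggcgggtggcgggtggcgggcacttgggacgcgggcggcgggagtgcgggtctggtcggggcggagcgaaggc
Cdk1: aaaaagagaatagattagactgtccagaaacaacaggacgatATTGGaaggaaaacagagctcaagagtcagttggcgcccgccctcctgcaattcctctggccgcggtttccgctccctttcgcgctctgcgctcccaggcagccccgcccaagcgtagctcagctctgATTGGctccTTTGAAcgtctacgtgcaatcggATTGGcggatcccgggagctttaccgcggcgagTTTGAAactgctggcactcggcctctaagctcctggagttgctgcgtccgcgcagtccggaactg
Kif23: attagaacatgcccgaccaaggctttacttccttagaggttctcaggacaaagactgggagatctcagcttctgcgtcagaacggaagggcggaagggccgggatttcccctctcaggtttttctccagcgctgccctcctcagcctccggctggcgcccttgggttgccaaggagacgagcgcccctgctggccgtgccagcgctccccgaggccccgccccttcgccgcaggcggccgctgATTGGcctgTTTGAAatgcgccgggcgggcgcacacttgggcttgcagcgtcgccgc
Spc25: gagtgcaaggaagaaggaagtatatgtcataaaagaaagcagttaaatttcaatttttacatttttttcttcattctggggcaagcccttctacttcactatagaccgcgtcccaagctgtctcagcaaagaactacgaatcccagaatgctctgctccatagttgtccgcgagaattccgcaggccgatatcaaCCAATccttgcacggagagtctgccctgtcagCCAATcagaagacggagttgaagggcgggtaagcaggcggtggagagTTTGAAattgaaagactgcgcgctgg
Cdc20: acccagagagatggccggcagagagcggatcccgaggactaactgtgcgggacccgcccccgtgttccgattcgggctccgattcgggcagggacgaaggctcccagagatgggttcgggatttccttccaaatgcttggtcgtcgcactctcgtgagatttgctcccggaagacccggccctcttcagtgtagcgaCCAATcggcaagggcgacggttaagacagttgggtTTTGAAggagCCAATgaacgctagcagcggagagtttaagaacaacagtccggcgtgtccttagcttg
In these windows Cdk1 and Mki67 held 2 CHR matches each and the other genes 1, and the promoters held between 1 and 3 CCAAT matches.

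The RefSeq table held a promoter for 50 of the 58 members and 27025 promoters in all. CHR letters on either strand were found in 37 of the 50 windows (74%, Wilson 95% interval 60.4 to 84.1%) and in 19.4% of all promoters. Between 50 bases before and 50 after the start, 34 of 50 members (68%) and 5.29% of all promoters had a match. CCAAT letters on either strand were in 36 of 50 member windows (72%) and in 37.9% of all. Both kinds of letters occurred together in 32 members (64%) and in 7.70% of all promoters. The members' windows also had a higher median GC content, 58.8% against 52.7%, and the intervals cover counting error only.

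**Figure D1:**
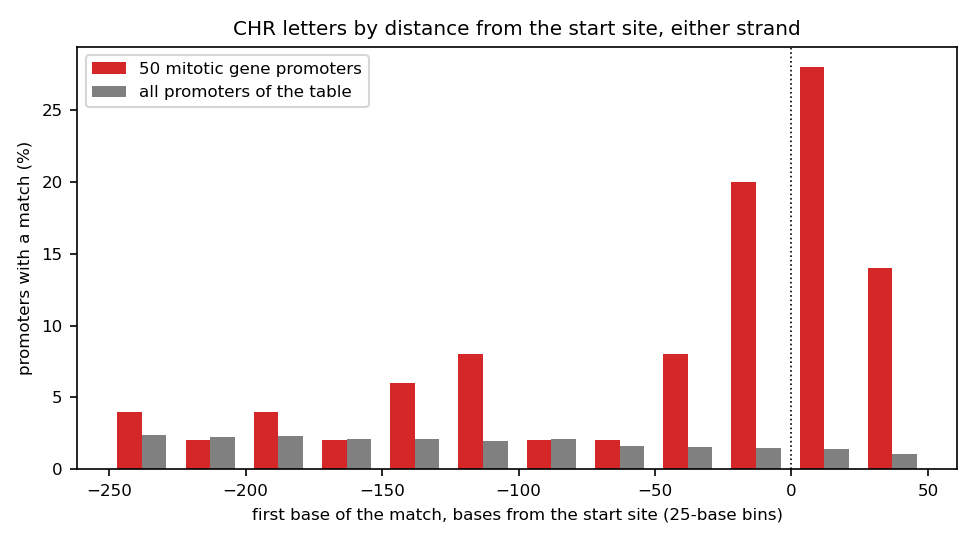
Share of promoters with CHR letters (TTTGAA or TTCGAA, either strand) in bins of 25 bases, by distance of the first matched base from the annotated start, for 50 mitotic gene promoters (red) and all 27025 promoters of the RefSeq table (grey). The members' matches gather in the 3 bins from 25 bases before to 49 after the start (20%, 28% and 14%), where all promoters have 1.49%, 1.37% and 1.06%.

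Members with and without the letters overlapped in their response to Foxc1 loss. The 37 members with a CHR match had a median fold of 3.59 in anagen and 6.17 in second telogen, and the 13 without one had 3.28 and 4.61. Cdc25b, Bub3 and Ttk, whose telogen folds were among the lowest, all held CHR letters. Kif18a, with the lowest telogen fold (1.19), and Ccnb1, with 6.45, held none in this window. Of the other gene lists, 23 of 46 promoters (50%) of further mitotic genes held CHR letters and 6 of 29 (20.7%) of DNA replication genes. In the list of the anaphase-promoting complex core, Cdh1 and Ube2s, 2 of 13 (15.4%) held them.

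In anagen, nearly the whole machinery was higher in Foxc1 knockout stem cells. Of 58 members 55 rose, 1 fell and 2 were not called, where a call is a q below 0.05 in the authors' deposited table. Over all 13716 tested genes 5.18% were called higher and 5.08% lower. The median fold over members was 3.35 (interquartile range 2.90 to 3.72), and 53 of the 58 were both called and at least 2-fold higher. The median member level went from 4.72 FPKM in Het to 14.8 FPKM in iKO cells. On the log2(FPKM + 1) scale the median difference was 1.54 for members and -0.02 for all tested genes. Of the 58 members, 52 had the smallest p the authors' deposited table gives, 5e-05. In bulk samples such as these, fewer cells of a type and less RNA per cell cannot be told apart, so the values do not separate more dividing cells from more transcript in each.

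In second telogen the same genes started from a lower level and 50 of 58 rose with K14Cre deletion of Foxc1, none fell and 8 were not called. No member was lower at an unadjusted p below 0.05 either in the authors' deposited Cuffdiff table. Over all 13551 tested genes 3.75% were called higher. All 50 called members were at least 2-fold higher, and the value of each of the 58 was higher in cKO than in WT. The median fold was 5.37 (interquartile range 3.27 to 7.92), from a median of 1.18 FPKM in WT to 5.42 FPKM in cKO. In WT cells 27 members lay below 1 FPKM, and in cKO cells 2 did. The median log2(FPKM + 1) difference was 1.56 for members and 0.00 for all tested genes. These tables share no library with the anagen pair.

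**Figure D2:**
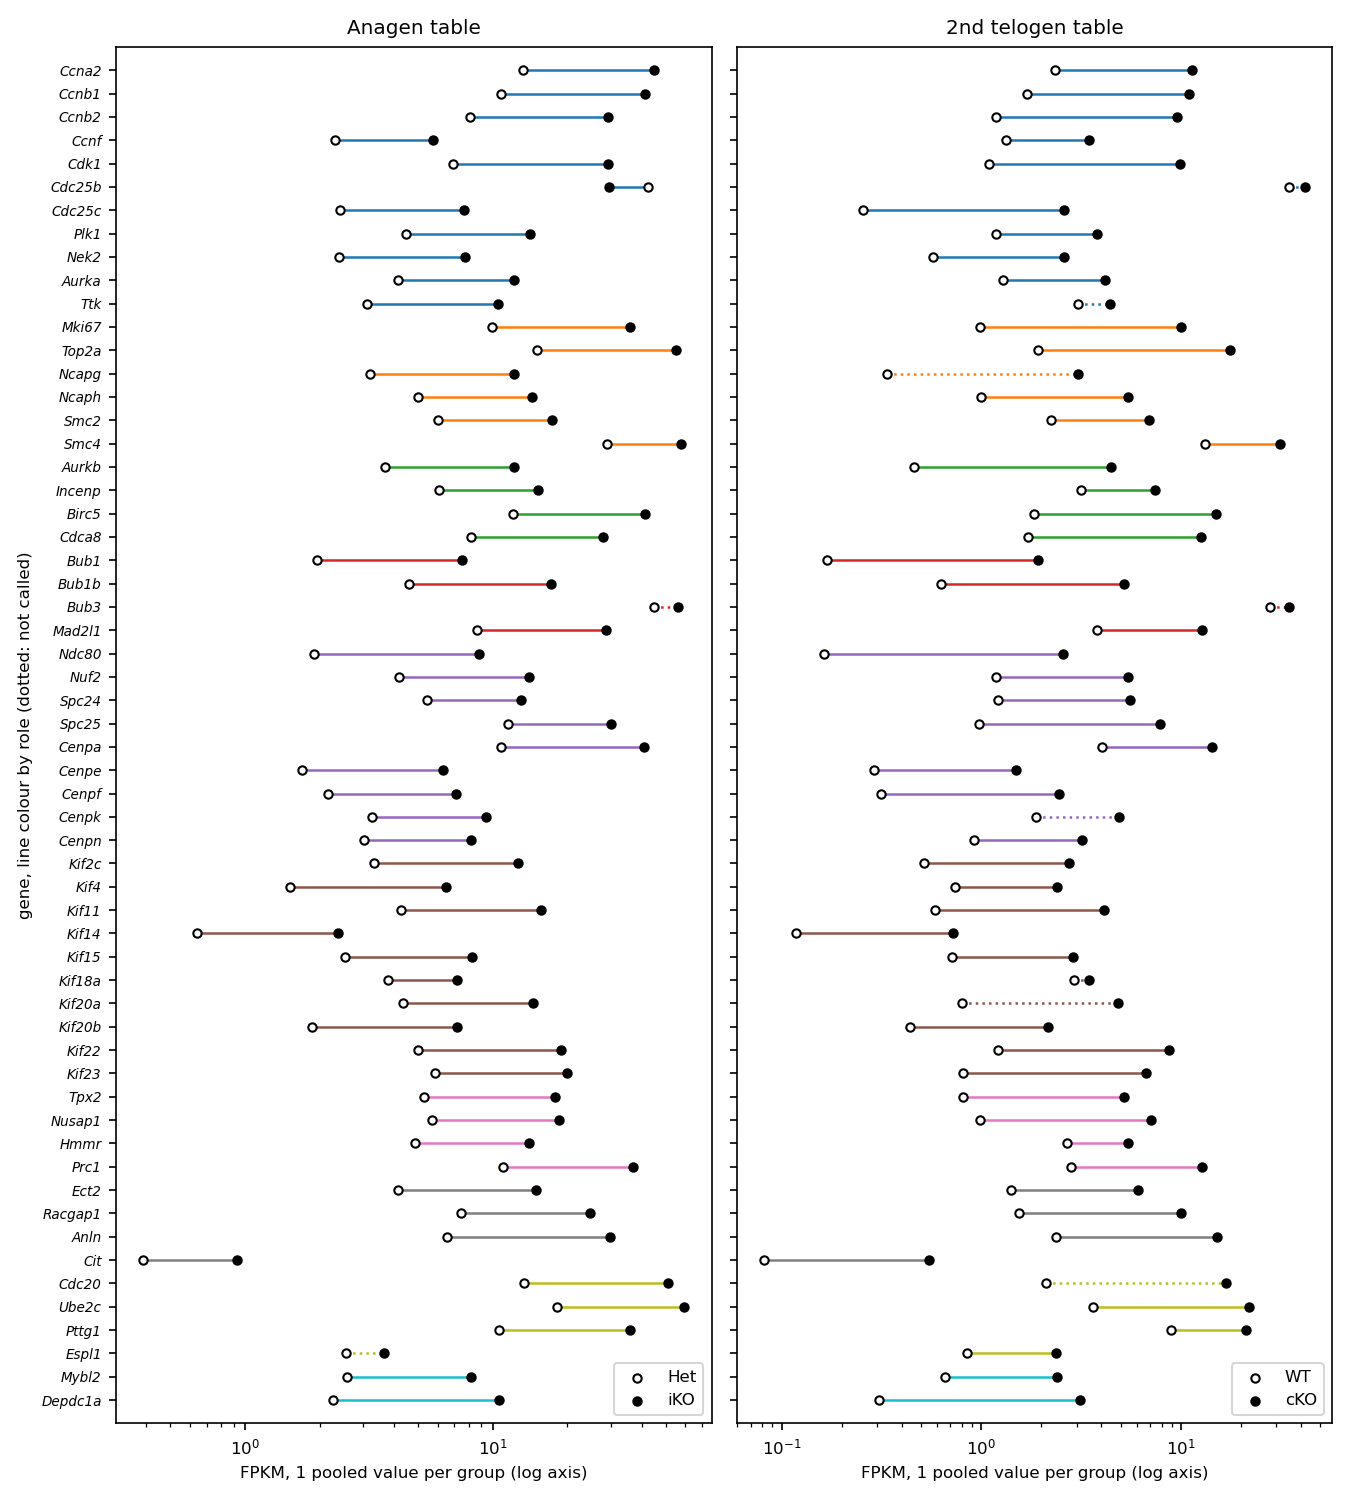
FPKM (log axis, 1 pooled value per group) of the 58 mitotic genes in control (open) and Foxc1 knockout (filled) stem cells, in the anagen table (left) and the second telogen table (right). Lines are coloured by role and dotted where the member was not called: the filled point lies right of the open one for 57 of 58 members in anagen and for all 58 in telogen.

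Among the mitotic cyclins, kinases and phosphatases, 10 of 11 rose in anagen and 9 of 11 in second telogen. Cdk1, the kinase that starts mitosis, went from 6.90 FPKM in Het to 29.4 in iKO cells (log2 fold 2.09, SE 0.26) and from 1.09 in WT to 9.95 in cKO (log2 fold 3.19, SE 0.46). Ccnb1, cyclin B1 and its partner, went from 10.8 to 41.3 FPKM in anagen (log2 fold 1.94, SE 0.25) and from 1.70 to 11 in telogen (log2 fold 2.69, SE 0.45). Cdc25c, a phosphatase that activates Cdk1, was at 2.42 and 7.66 FPKM in anagen (log2 fold 1.66, SE 0.35) and at 0.255 and 2.60 FPKM in telogen (log2 fold 3.35, SE 0.74). For these 3 genes q was 0.00106 in the authors' deposited anagen table and 0.00159 in the telogen table, the smallest value each holds. Plk1 and Aurka, the Polo-like and Aurora A kinases, rose 3.16-fold and 2.95-fold in anagen and 3.20-fold and 3.25-fold in telogen.

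Cdc25b, another Cdc25 phosphatase, was the single member that fell in anagen, from 42.5 to 29.4 FPKM (log2 fold -0.53, SE 0.25, q = 0.0297 in the authors' deposited table). In second telogen its values were 34.7 FPKM in WT and 41.8 in cKO (log2 fold 0.27, SE 0.34, q = 0.771 in the authors' deposited table). It was thus abundant in control cells at both stages, unlike most members. Ttk, the checkpoint kinase Mps1, rose 3.36-fold in anagen from 3.12 to 10.5 FPKM. In telogen it was at 3.06 and 4.42 FPKM (log2 fold 0.53, SE 0.43, q = 0.446 in the authors' deposited table), which is no call.

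All 6 genes of proliferation markers and chromosome structure rose in anagen and 5 rose in telogen. Mki67, which encodes the proliferation marker Ki-67, went from 9.98 to 35.9 FPKM in anagen (log2 fold 1.85, SE 0.30) and from 0.983 to 9.99 FPKM in telogen (log2 fold 3.34, SE 0.43). Top2a, the topoisomerase that untangles chromosomes, went from 15.1 to 55.0 FPKM and from 1.92 to 17.6 FPKM (log2 folds 1.87, SE 0.27, and 3.20, SE 0.40). Both had the smallest q of each of the authors' deposited tables, 0.00106 and 0.00159. Among the condensin subunits, Ncaph, Smc2 and Smc4 rose at both stages, with folds of 2.00 to 2.89 in anagen and 2.39 to 5.41 in telogen. The remaining one, Ncapg, rose 3.80-fold in anagen (log2 fold 1.93, SE 0.43). Its telogen values, 0.338 and 3.06 FPKM, gave a log2 fold of 3.18 with an SE of 1.2 and no call in the authors' deposited table (q = 0.0804).

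The chromosomal passenger complex corrects kinetochore attachments, and all 4 of its subunits rose at both stages. Aurkb, its kinase, went from 3.67 to 12.2 FPKM in anagen (log2 fold 1.73, SE 0.32) and from 0.461 to 4.45 FPKM in telogen (log2 fold 3.27, SE 0.62). Birc5, survivin, stood at 12.1 FPKM in Het and 41.2 in iKO (log2 fold 1.77, SE 0.32), and at 1.83 FPKM in WT and 14.9 in cKO (log2 fold 3.02, SE 0.60). Cdca8, borealin, was at 8.16 and 27.9 FPKM in anagen and at 1.72 and 12.7 FPKM in telogen. Incenp, the scaffold, had the smallest folds of the complex, 2.53 and 2.34.

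Of the spindle checkpoint genes, which delay anaphase until all chromosomes are attached, Bub1, Bub1b and Mad2l1 rose at both stages and Bub3 was not called at either. Bub1 went from 1.95 to 7.52 FPKM in anagen (log2 fold 1.94, SE 0.32) and from 0.169 to 1.91 FPKM in telogen (log2 fold 3.50, SE 0.68). Bub1b, which encodes BubR1, stood at 4.58 FPKM in Het and 17.3 in iKO (log2 fold 1.92, SE 0.29), and at 0.626 FPKM in WT and 5.18 in cKO (log2 fold 3.05, SE 0.52). Bub3 stood at 44.8 and 56.3 FPKM in anagen (log2 fold 0.33, SE 0.23) and at 28.0 and 34.8 FPKM in telogen (log2 fold 0.31, SE 0.30), with q = 0.295 and 0.679 in the authors' deposited tables. Like Cdc25b, it was abundant in control cells.

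The kinetochore and centromere genes rose in 9 of 9 cases in anagen and 8 of 9 in telogen. Ndc80, which encodes the microtubule-binding subunit of the Ndc80 complex, had the highest telogen fold of all members, 15.6, from 0.164 FPKM in WT to 2.56 in cKO (log2 fold 3.97, SE 0.87). In anagen it went from 1.9 to 8.81 FPKM (log2 fold 2.21, SE 0.38). Its partners Nuf2, Spc24 and Spc25 rose as well, and Spc25 was at 11.5 and 30.2 FPKM in anagen (log2 fold 1.39, SE 0.30) and at 0.979 and 7.89 FPKM in telogen (log2 fold 3.01, SE 0.61). Cenpa, the centromeric histone H3 variant, stood at 10.8 FPKM in Het and 40.8 in iKO (log2 fold 1.92, SE 0.25), and at 4.0 FPKM in WT and 14.3 in cKO (log2 fold 1.84, SE 0.39). Cenpk was the member without a telogen call, at 1.88 and 4.90 FPKM (log2 fold 1.38, SE 1.0, q = 0.462 in the authors' deposited table).

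Kinesins, the motors that move chromosomes and spindle fibres, rose in 10 of 10 cases in anagen and in 8 of 10 in telogen. Kif4, a chromosome-bound kinesin, had the highest anagen fold among them, 4.27, from 1.52 to 6.48 FPKM (log2 fold 2.09, SE 0.34), and in telogen it was at 0.740 and 2.40 FPKM (log2 fold 1.70, SE 0.52). Kif23, a motor of the central spindle, stood at 5.85 FPKM in Het and 19.9 in iKO (log2 fold 1.77, SE 0.28), and at 0.814 FPKM in WT and 6.72 in cKO (log2 fold 3.04, SE 0.50). Kif22, which pushes chromosome arms, rose 3.79-fold and 7.25-fold, and Kif20b rose 3.84-fold and 4.91-fold. Kif18a, which dampens chromosome movements, rose 1.89-fold in anagen and had the lowest telogen fold of all members, 1.19, from 2.92 to 3.48 FPKM (log2 fold 0.26, SE 0.43, q = 0.868 in the authors' deposited table). Kif20a rose 3.37-fold in anagen and was at 0.803 and 4.82 FPKM in telogen, with an SE of 1.8 and q = 0.466 in the authors' deposited table.

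The 4 spindle microtubule proteins and the 4 cytokinesis proteins rose at both stages. Tpx2, a spindle assembly factor, was at 5.28 and 17.9 FPKM in anagen and at 0.806 and 5.16 FPKM in telogen (log2 folds 1.76, SE 0.28, and 2.68, SE 0.47). Prc1, which bundles antiparallel microtubules, rose 3.35-fold and 4.57-fold, and Nusap1 rose 3.28-fold and 7.13-fold. Anln, the contractile ring protein anillin, stood at 6.53 FPKM in Het and 29.9 in iKO (log2 fold 2.19, SE 0.26), and at 2.38 FPKM in WT and 15.1 in cKO (log2 fold 2.66, SE 0.37). Ect2 and Racgap1, which position and activate the ring, rose 3.61-fold and 3.31-fold in anagen and 4.31-fold and 6.49-fold in telogen. Cit, citron kinase, had the lowest levels of all members, 0.388 and 0.930 FPKM in anagen and 0.0815 and 0.550 FPKM in telogen.

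Genes that end mitosis rose in 3 of 4 cases at each stage, and the exception differed. Ube2c, the ubiquitin-conjugating enzyme of the anaphase-promoting complex, went from 18.3 to 59.6 FPKM in anagen (log2 fold 1.71, SE 0.24) and from 3.63 to 21.8 FPKM in telogen (log2 fold 2.59, SE 0.40). Pttg1, securin, stood at 10.7 FPKM in Het and 35.9 in iKO (log2 fold 1.75, SE 0.36), and at 8.95 FPKM in WT and 21.2 in cKO (log2 fold 1.24, SE 0.47, q = 0.0103 in the authors' deposited table). Cdc20, an activator of the complex, rose in anagen from 13.4 to 50.9 FPKM (log2 fold 1.92, SE 0.52). In telogen it was at 2.11 and 16.9 FPKM (log2 fold 3.0, SE 1.4) without a call, q = 0.211 in the authors' deposited table. Espl1, separase, was not called in anagen at 2.55 and 3.65 FPKM (log2 fold 0.52, SE 0.30, q = 0.108 in the authors' deposited table) and rose in telogen from 0.850 to 2.38 FPKM (log2 fold 1.48, SE 0.44). Mybl2, the B-Myb protein that joins MuvB on CHR promoters, rose 3.16-fold in anagen (2.59 to 8.18 FPKM) and 3.64-fold in telogen (0.659 to 2.40 FPKM). Depdc1a had the highest anagen fold of all members, 4.67 (2.27 to 10.6 FPKM, log2 fold 2.22, SE 0.34), and rose 10.1-fold in telogen (0.309 to 3.11 FPKM).

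The 8 members without a telogen call were of 2 kinds by their values. Cdc25b, Bub3, Kif18a and Ttk had folds of 1.19 to 1.44. Ncapg, Cenpk, Kif20a and Cdc20 had folds of 2.61 to 9.07 and SEs of 1.0 or more, where the median SE over members was 0.51. These 4 are among 10 members whose gene model overlaps another one (Lcorl and Gm3414 for Ncapg, Ppwd1 for Cenpk, Brd8 and Cdc23 for Kif20a, Elovl1 for Cdc20). The other overlapping members, Ccna2, Ccnf, Smc4, Tpx2, Nusap1 and Mybl2, were all called higher in telogen, with SEs of 0.35 to 0.68. Whether counting used strand is not stated in the sources used here, so reads of overlapping genes cannot be told apart. In the joint table Ncapg and Cdc20 were called higher in cKO than in WT, at log2 folds of 3.18 and 3.0.

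Of the 58 members 49 rose at both stages, 6 rose in anagen only by call, Espl1 rose in telogen only by call, Cdc25b fell in anagen, and Bub3 was not called in either. The telogen log2 fold was the larger one for 49 members, with a median difference of 0.77. The difference of both log2 folds was tested for each of 12939 genes as a two-sided z value built on the Cuffdiff statistics. After Benjamini-Hochberg adjustment none of the 58 members differed between the pairs at 0.05, and 0.657% of all genes did. Cre driver, tamoxifen, control genotype, strain, sex and age differ between these pairs along with stage, and cannot be told apart. The smallest adjusted p among members was 0.285, for Mki67. At an unadjusted p below 0.05 there were 12 members, 11 of them larger in telogen. Mki67 differed by 1.5 (95% interval 0.48 to 2.51) and Top2a by 1.34 (0.39 to 2.28). Ttk was the member among the 12 with the smaller telogen fold, with a difference of -1.22 (-2.26 to -0.17). The 27 members below 1 FPKM in WT telogen cells had a median telogen fold of 6.75, and the other 31 had 4.31. Their anagen medians were 3.39 and 3.34. WT values enter both the split and the telogen fold.

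**Figure D3:**
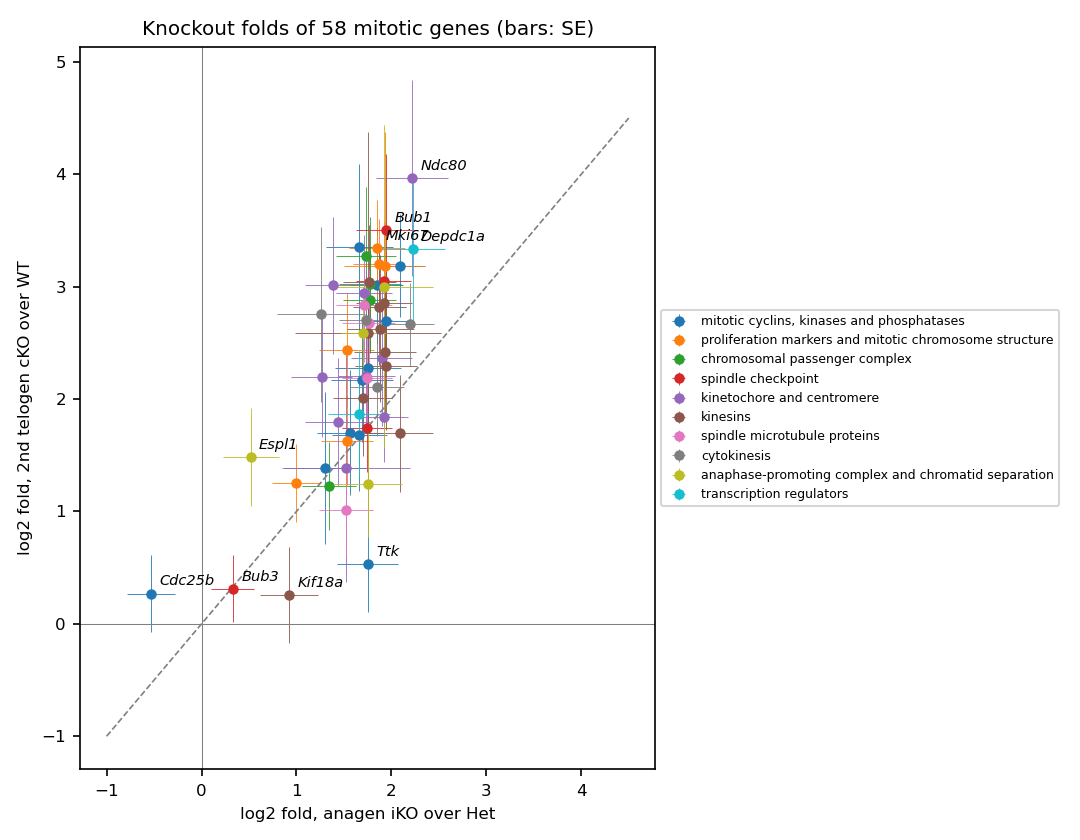
Log2 fold of the 58 mitotic genes in anagen (iKO over Het, horizontal) and in second telogen (cKO over WT, vertical), with bars of 1 SE and colours by role; the dashed line marks equal folds. Of the 58 points 49 lie above the line, and Cdc25b, Bub3, Kif18a, Ttk and Espl1 lie apart from the main group.

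The joint table of 7 groups adds the second telogen iKO cells and the unreplicated libraries on 1 scale. Comparisons within it share libraries, and its q is adjusted over 21 pairs. The median member level was 1.23 FPKM in second telogen WT, 3.95 in telogen iKO, 5.64 in telogen cKO, 4.46 in anagen Het, 13.9 in anagen iKO, 2.34 in first telogen and 17.7 in anagen II. WT cells of second telogen held the lowest value for 55 members. The highest value was in anagen II for 43 members and in anagen iKO for 13. The order telogen WT, telogen iKO, telogen cKO, anagen iKO, from low to high, held for 54 of 58 members, with Ccnf, Cdc25b, Ttk and Kif18a outside it.

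**Figure D4:**
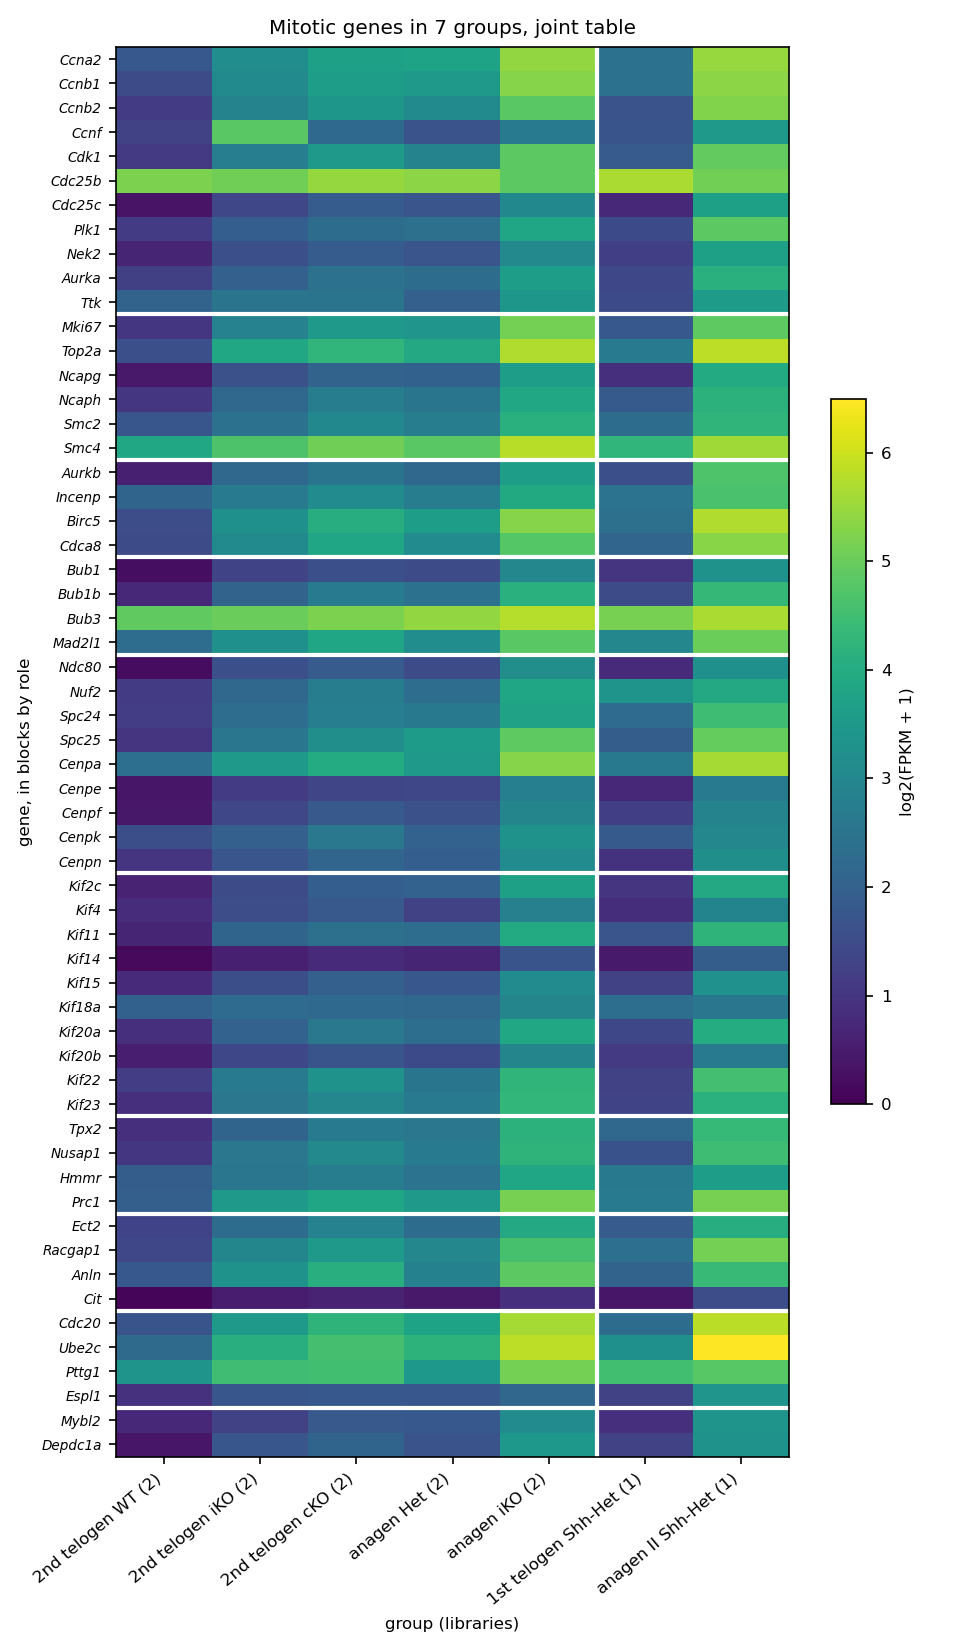
Heat map of log2(FPKM + 1) of the 58 mitotic genes (rows, in blocks by role) in the 7 groups of the joint table (columns, number of libraries in brackets; the white vertical line sets off the unreplicated pair). Most rows are darkest in second telogen WT and brightest in anagen iKO and anagen II, while Cdc25b and Bub3 are bright in every column and Ccnf is brightest in telogen iKO.

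With the other driver, second telogen iKO cells differed from WT in the same direction as cKO cells. The WT libraries are the same ones that cKO was set against, so the comparisons are not independent. Against WT, 51 of 58 members were higher in telogen iKO cells, none was lower and 7 were not called, beside 7.01% of all tested genes called higher. None was lower at an unadjusted p below 0.05 either in the authors' deposited Cuffdiff table. The median fold was 3.69. Mki67 was at 1.02 FPKM in WT, 6.34 in iKO and 10.4 in cKO, Cdk1 at 1.14, 5.84 and 10.4, and Ndc80 at 0.170, 1.99 and 2.67. Age, strain, sex, Cre driver and tamoxifen differ between iKO and WT and cannot be told apart from the loss of Foxc1. Compared directly, 18 of 58 members were lower in telogen iKO than in cKO (7.35% of all genes), 1 was higher (7.53%) and 39 were not called, with a median fold of 0.677. Of those 19 calls 6 had q below 0.01, and no member was 2-fold lower. This pair differs in Cre driver, tamoxifen, strain, age and sex, which cannot be told apart. The 18 included Cdk1, Ccnb1, Mki67, Birc5, Bub1b, Anln and Mybl2. Birc5 had the lowest ratio, at 8.54 FPKM in iKO and 15.5 in cKO.

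Ccnf, cyclin F, a substrate receptor of a ubiquitin ligase, departed from this pattern. It stood at 27.4 FPKM in telogen iKO cells against 1.39 in telogen WT, 3.62 in telogen cKO, 2.19 in anagen Het, 5.41 in anagen iKO, 2.20 in first telogen and 10.4 in anagen II. Telogen iKO was 19.8-fold above WT (log2 fold 4.31, SE 0.50), 7.58-fold above cKO and 5.06-fold above anagen iKO, each with q = 0.000444 in the authors' deposited table. Its gene model overlaps that of Mir6965. Whether both libraries of the group hold this level cannot be read from a pooled value.

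Within the inducible knockout, telogen cells held less of nearly every member than anagen cells: 55 of 58 were lower (15.5% of all genes), Ccnf was higher (17.6% of all genes), and Cdc25b and Espl1 were not called. The median fold was 0.264, and Kif2c had the lowest ratio, at 1.84 FPKM in telogen and 11.9 in anagen iKO. In this pair 5 of 5 markers of differentiating epidermis were higher in telogen (summed FPKM 886 in anagen and 3494 in telogen) and 6 of 10 hair matrix and shaft markers were lower (97.7 and 27.3), and their part in the members' values was not tested. Age differs along with stage there. Among controls, anagen Het cells held more than telogen WT of 50 of 58 members (11.9% of all genes), none was lower, also at an unadjusted p below 0.05 in the authors' deposited Cuffdiff table, and the median fold was 4.33. Spc25 had the highest, 10.7, and 8 were not called. Among these 8, Pttg1 had a fold of 1.08, while Cdc20 had a fold of 5.77 with an SE of 1.3 on its log2 fold. Age, sex, genotype, strain, Cre driver and tamoxifen differ along with stage in that pair, and so do the same markers, with summed FPKM of 3179 in WT and 475 in Het for epidermis and 34.7 and 137 for hair matrix and shaft. Telogen cKO values exceeded those of anagen Het for 52 members, with a median ratio of 1.26. By call 9 were higher and 49 were not called, a share close to the 12.4% of all genes called higher, and 4 of the 9 had q below 0.01. Stage, age, sex, strain, Cre driver, tamoxifen and Foxc1 genotype all differ between telogen cKO and anagen Het, and cannot be told apart. This pair was chosen after its values were seen.

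The unreplicated pair has no test, and a member is counted at a fold of at least 2. From first telogen to anagen II 53 of 58 members were at least 2-fold higher, beside 10.4% of genes with 1 FPKM or more in either library. The median fold was 8.19, and the highest was 18.2 for Cdc25c. On the log2(FPKM + 1) scale the median difference was 2.41 for members, and -0.12 over those genes at 1 FPKM or more. Over all genes that the authors' table marks as tested it was -0.26. Cdc25b (49.7 and 33.7 FPKM), Bub3 (34.4 and 49.9), Nuf2 (9.25 and 14.2), Kif18a (4.10 and 4.86) and Pttg1 (22.1 and 27.0) did not reach 2-fold. Thus Cdc25b, Bub3 and Kif18a had small folds here and in second telogen alike. The summed FPKM of 6 fibroblast markers was 2107 in first telogen and 1025 in anagen II, against 13.5 to 103 in the other 5 groups. Markers of differentiating epidermis summed to 1198 and 380.5 FPKM, immune markers to 58.4 and 12, and endothelial and pericyte markers to 30.5 and 6.40, and the part of these cells in the members' values was not tested.

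**Figure D5:**
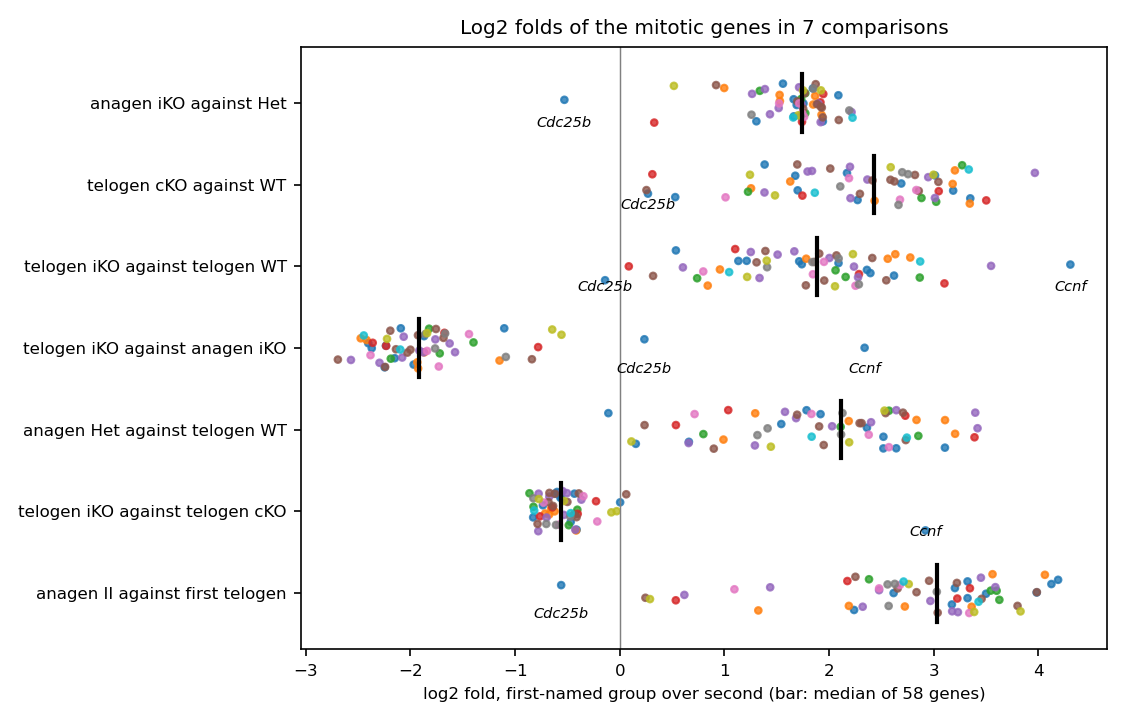
Log2 fold of each of the 58 mitotic genes (points, coloured by role, with random vertical spread) in 7 comparisons, the first 2 from their own tables and the others from the joint table; black bars are medians. Most points lie right of 0 in the knockout and stage comparisons and left of 0 where telogen iKO is set against anagen iKO or telogen cKO, with Ccnf and Cdc25b named where they stand apart.

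Of 61 further mitotic genes 53 rose in anagen iKO cells and 41 in second telogen cKO cells, and none fell, beside 5.18% and 3.75% of all tested genes called higher at these stages. Cep55 rose 4.32-fold and Ska1 4.31-fold in anagen, and Pbk rose 17.4-fold and Cdkn3 11.8-fold in telogen. DNA replication genes rose in 30 of 36 cases in anagen and in 23 in telogen, led at both stages by Mcm10 (3.92-fold and 10.7-fold) and Orc1 (3.80-fold and 10.1-fold). In the cohesin list none of 9 genes was called at either stage in the authors' deposited Cuffdiff tables, and at an unadjusted p below 0.05 there was 1 in anagen and 0 in telogen. A list of 14 genes held core subunits of the anaphase-promoting complex, Cdh1 and the ubiquitin-conjugating enzyme Ube2s. Only Ube2s was called in anagen, where it rose 1.59-fold, and none was called in telogen, also at an unadjusted p below 0.05. Against the same 5.18% and 3.75%, the counts in these last lists were near those of all genes. In telogen iKO cells against WT the cohesin gene Rad21 rose 1.49-fold (7.01% of all genes called higher), 5 of the 9 cohesin genes had an unadjusted p below 0.05 in the authors' deposited Cuffdiff table, and the median log2(FPKM + 1) difference was 0.36. The median in anagen iKO against Het was 1.28 for the further mitotic genes, 1.10 for replication, 0.20 for cohesin and 0.09 for the list with the core complex, Cdh1 and Ube2s.

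Of 24 transcription control genes, which include the E2F, Rb and MuvB families, 8 rose in anagen, beside 5.18% of all genes. They were E2f8, E2f7, Mybl1, E2f1, Rbl1, Lin9, Lin54 and Tfdp1, and E2f8 rose 2.62-fold and E2f7 2.52-fold. In telogen 4 of the 23 tested rose, beside 3.75% of all genes, namely E2f1, E2f8, Mybl1 and E2f2, with E2f1 at 5.71-fold (1.27 to 7.26 FPKM), and the cell cycle inhibitor Cdkn1a was the 1 that fell. Beyond E2f8, E2f7 and E2f1, these names were added after their values were seen.

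Across the 7 groups of the joint table the members followed nearly 1 profile. Pearson's correlation of log2(FPKM + 1) with the members' mean was at least 0.95 for 47 of 58 members, and for 1.49% of 14098 genes with at least 1 FPKM in some group. The members make up that mean, and the 7 points share tables and libraries, so these values are a description. The lowest were Cdc25b (-0.54), Ccnf (0.46) and Pttg1 (0.73). Outside the members the genes most like the mean were Clspn, 2810417H13Rik, Shcbp1, Zwilch, Neil3, Cdca5, Knstrn, Spag5, C330027C09Rik and Fancd2, with correlations from 0.999 to 0.995. Clspn was at 0.263 FPKM in telogen WT, 2.01 in cKO, 1.55 in anagen Het, 4.70 in anagen iKO and 5.56 in anagen II.

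Foxc1 itself was at 23.9 FPKM in Het and 1.40 in iKO anagen cells and at 26.5 in WT and 1.59 in cKO telogen cells, and in the joint table telogen iKO cells held 3.17 FPKM. Of 10 bulge stem cell markers 8 had values above 0 in every group, with sums of 2110 to 4994 FPKM, while Krt15 and Krt5 are listed at 0 in some groups with a status that marks too much data, and check nothing there. Krt14 alone, at 1452 to 4351 FPKM, made up most of each sum. In anagen Krt14 was at 3630 FPKM in Het and 4351 in iKO. Cd34, Lgr5, Sox9, Lhx2, Itga6, Nfatc1 and Tcf7l1 each had a lower value in anagen iKO than in Het. The values were close for Lgr5 (55.9 FPKM in Het and 54.2 in iKO), Sox9 (74.9 and 71.4) and Itga6 (99.2 and 96.2). Beside 5.08% of all tested genes called lower, hair matrix and shaft markers fell in 6 of 10 cases in anagen iKO cells. None of the 10 was called higher, and 1 was higher at an unadjusted p below 0.05 in the authors' deposited Cuffdiff table. Their summed joint FPKM was 137 in Het and 97.7 in iKO. Hoxc13 (30.6 in Het and 42.0 in iKO) and Shh (1.37 and 1.86) had higher values in iKO. Of 6 fibroblast markers 3 fell (103 and 54.7), and the bulge marker Cd34 fell 1.77-fold. By call 2 of 8 tested bulge markers were lower in anagen iKO, beside the same 5.08% of all tested genes, and none in telogen cKO. At an unadjusted p below 0.05 in the authors' deposited Cuffdiff table, 3 of 8 were lower in telogen cKO and none was higher. Cd34 was at 848 FPKM in telogen WT and 385 in cKO (q = 0.120 there). In second telogen the fibroblast sum was 23.3 FPKM in WT and 74.6 in cKO, where Col1a1 rose 6.22-fold and 4 of the 6 markers were below 1 FPKM. Markers of differentiating epidermis summed to 3179 FPKM in WT and 4901 in cKO and to 475 in Het and 886 in iKO anagen cells. Of these 5 markers 2 were called higher in anagen iKO, beside 5.18% of all tested genes, and none was called in telogen cKO. Of 5 hair germ markers Ccnd1 rose (1.78-fold) and Gli1 fell (1.55-fold, 14.3 to 9.21 FPKM) in anagen iKO cells, and in telogen cKO cells 3 rose, Lef1 4.03-fold, Ccnd1 2.53-fold and Gli1 1.62-fold. Over all tested genes 5.18% were called higher in anagen and 3.75% in telogen. The endothelial and pericyte sum was below 1 FPKM in each second telogen group, at 0.293, 0.428 and 0.127, with Rgs5 listed at 0 in WT and cKO. Immune markers summed to 3.77 to 6.98 FPKM in the 5 replicated groups, and melanocyte markers to 26.8 to 48.0 FPKM. The part of these markers in the mitotic gene values was not tested.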

How the data were processed

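RNA of 12 libraries in 7 groups was analysed from 3 deposited tables, which the submitters' processing notes attribute to TopHat, Cufflinks and Cuffdiff on mouse build mm9, versions not given in the sources used here. FPKM is 1 pooled value per group computed by the authors, and tables were scaled separately. The deposited log2 fold is the authors' ratio of 2 FPKM values, and folds given here are that ratio. The test statistic is a score deposited by the authors. The deposited p-value and q-value of Cuffdiff were the main test, called at q below 0.05 over all tested genes, with q in the joint table adjusted over 21 comparisons. The SE is the log2 fold divided by the statistic and is approximate. Depth is unknown.

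The members and lists were chosen with earlier results of these data known. Per role, the 2 members with the lowest p in each 2-group table were named with their statistics (ties by larger fold), as were the highest, the lowest and up to 5 uncalled members of a comparison. From other lists the 2 largest called folds were named, and by likeness the 10 genes most correlated with the members' mean. A symbol on several rows kept the row with the highest mean FPKM. Promoters came from RefSeq (GRCm38.p6, 50 of 58 members matched), searched for the CHR and CCAAT letters on both strands. A promoter for Incenp, Kif20a, Tpx2, Ccna2, Spc24, Cdc25c, Aurkb and Smc4 was not used here. Code ran in Python 3.11.15 with pandas 2.3.3, numpy 2.4.6 and scipy 1.17.1. The difference test was also run on folds simulated with the same approximate SEs, which checks the code but cannot check whether those SEs are right. Alternatives covered the q threshold, a filter on low values, the adjustment, the pseudocount, the table and the motif letters.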

Additional observations from a re-analysis of the deposited data

How the results depend on the processing

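No paired analysis was possible because the deposited tables hold 1 pooled value per group, and for the same reason no library could be left out in turn. Counts of members called kept within 1.5 times their value under every alternative run, except for telogen iKO against telogen cKO and for telogen cKO against anagen Het. In the former 19 members were called at q below 0.05, 6 at q below 0.01, and 1 when a fold of at least 2 was also required. In the latter, whose alternatives were chosen after the data were seen, 9 were called, 4 at q below 0.01 and 2 with the fold of at least 2. Medians of the log2(FPKM + 1) ratio, counted as moved beyond 1.5-fold of their value, depended on the pseudocount. With a pseudocount of 5 the median was 0.74 for telogen cKO against WT, 0.47 for telogen iKO against WT, 0.55 for anagen Het against telogen WT, -0.27 for telogen iKO against cKO and 1.58 for anagen II against first telogen. With 0.1 it was 1.89 for anagen Het against telogen WT. Read on the gene strand alone, CHR letters were in 54% of member promoters and 11.5% of all. A window of 50 bases on either side of the start, chosen after the data were seen, gave 68%. No direction reversed under the alternatives run. For single members the joint table gave the same call in 114 cases, and in the other 2, Ncapg and Cdc20 in telogen, a call was made only there. The tables carry 2 libraries per group at most, give no depth, and do not show whether 1 library sets a value.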
